A study of Homo sapiens with 24 samples.

Results

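The genes described here are 9 of the 14493 genes in a table of RNA-seq read counts from SKBR3 cells, and they were picked from it by gene symbol. They comprise the type I interferon receptor subunits IFNAR1 and IFNAR2, the interferon-gamma receptor subunit IFNGR1, the signal transducer STAT2, the interferon regulatory factors IRF1, IRF3, IRF7, and IRF9, and the interferon-induced phospholipid scramblase PLSCR1. All 9 were in the table, with at least 50 counts in every library, and all 9 passed the filter on low counts in each of 9 comparisons. PLSCR1 is a target of the pathway more than a part of it, so the set joins receptors, transcription factors, and a gene that they control.

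SKBR3 is an established human breast cancer cell line with amplified ERBB2, and no group carried an edited gene. Untreated cells were collected on day 0, as proliferative controls, or on day 7. The other 6 groups were brought into therapy-induced senescence (TIS), an arrest of the cell cycle that follows treatment, with ND-646 (an inhibitor of acetyl-CoA carboxylase, 250 nmol/L), TVB-3166 (an inhibitor of fatty acid synthase, 250 nmol/L), bleomycin (a DNA-breaking agent, 10 µmol/L), doxorubicin (a topoisomerase II poison, 10 nmol/L), alisertib (an Aurora A kinase inhibitor, 500 nmol/L), or palbociclib (a CDK4/6 inhibitor, 1 µmol/L), renewed on day 3 and collected on day 7. Each of the 8 groups held 3 libraries of 29405121 to 44316330 counts. The labels do not state whether the replicates of a group were separate cultures, so the p-values measure only the spread between these libraries. All groups come from a single cell line.

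The defining markers of SKBR3 cells were high in all 24 libraries, and ERBB2 lay between 5125 and 8828 CPM, a count scaled to the size of its library. Of 7 immune cell markers, 1 was in the table, the lysosomal glycoprotein gene CD68, which tumour cells can also express. The other 6, among them PTPRC, CD3E, CD14, and LYZ, were not analysed here. Libraries of untreated day-0 cells held 4.19 to 6.07 CPM of CD68, against 42.0 to 54.95 in ND-646 cells, 25.6 to 30.3 in TVB-3166 cells, 34.3 to 56.4 in bleomycin cells, 9.23 to 10.2 in doxorubicin cells, 4.78 to 5.75 in alisertib cells, and 8.49 to 12.9 in palbociclib cells. CD68 thus moved with several of the genes below, and its part in those results was not tested. Of 5 fibroblast and endothelial markers, 2 were in the table, COL1A1 and VWF, with a summed level of 6.53 to 15.6 CPM over all libraries. In bulk libraries a higher level in every cell and a higher share of expressing cells cannot be told apart, nor can fewer cells of a type and less RNA per cell.

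Interferons signal through cell surface receptors that carry Janus kinases. Type I interferons bind IFNAR1 and IFNAR2, and the signal is carried into the nucleus by ISGF3, a complex of which STAT2 and IRF9 are subunits, which binds the interferon-stimulated response element (ISRE) in the promoters of antiviral genes. Interferon-gamma binds IFNGR1 and IFNGR2, and its signal reaches promoters with a gamma-activated site (GAS), including that of IRF1. IRF3 and IRF7 act upstream, since nucleic acid sensors activate them to switch on the interferon genes themselves. Senescent cells are known to raise interferon-stimulated genes in many models.

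Across the TIS groups, IRF9 rose by 2.19- to 13.9-fold and IRF1 by 1.94- to 7.63-fold over proliferative day-0 cells. IFNGR1 rose by 1.38- to 2.72-fold and STAT2 by 1.46- to 2.21-fold, also in all 6 groups, while the type I receptor subunits did not pass the test in any group. IRF7 and PLSCR1 rose with ND-646, TVB-3166, bleomycin, and doxorubicin, and neither rose with alisertib or palbociclib. IRF3 was lower in 5 of 6 groups. Against untreated day-7 cells the IRF3 call held only with TVB-3166, and the IRF9 call with palbociclib was lost. The STAT2 call with ND-646 was lost there and under several other alternatives. Genes were tested with the quasi-likelihood test of edgeR, with p-values adjusted over all genes by Benjamini-Hochberg, and a gene was called at an adjusted p-value under 0.05. The 6 comparisons share the day-0 libraries and are therefore not independent of each other.

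Read against all genes, 6 members rose and 0 fell in ND-646 cells, in which 37.9% of 13604 genes were called in either direction. In TVB-3166 cells 6 rose and 1 fell, against 55.1% of 13686 genes called. In bleomycin cells the counts were also 6 and 1, with 49.4% of 13743 genes called, and in doxorubicin cells they were again 6 and 1, with 48.4% of 13804 genes called. Alisertib cells had 4 members higher and 1 lower, with 37.3% of 13765 genes called, and palbociclib cells had 4 higher and 2 lower, with 53.2% of 13746 genes called. The share of genes called higher was 19.1%, 27.4%, 24.1%, 23.7%, 17.7%, and 26% in ND-646, TVB-3166, bleomycin, doxorubicin, alisertib, and palbociclib cells, in that order, and the share called lower was 18.8%, 27.7%, 25.3%, 24.8%, 19.6%, and 27.2%. The median log2 fold-change of the 9 members was 1.30, 1.07, 1.19, 0.97, 0.30, and 0.25 in the same order, while the median over all genes tested lay between -0.01 and 0.02. Under the study's own thresholds, a fold-change of at least 2 and an unadjusted p-value under 0.05, 5, 5, 5, 4, 1, and 4 members were altered in the same order of groups, against 20.7%, 17.6%, 18.8%, 12.9%, 7.9%, and 16.7% of genes. In untreated day-7 cells 0 members were called by edgeR, with 0.587% of 13636 genes called. At an unadjusted p-value under 0.05 edgeR found 1 of the 9 in that comparison, IRF9, and DESeq2 called the same gene.

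**Figure D1:**
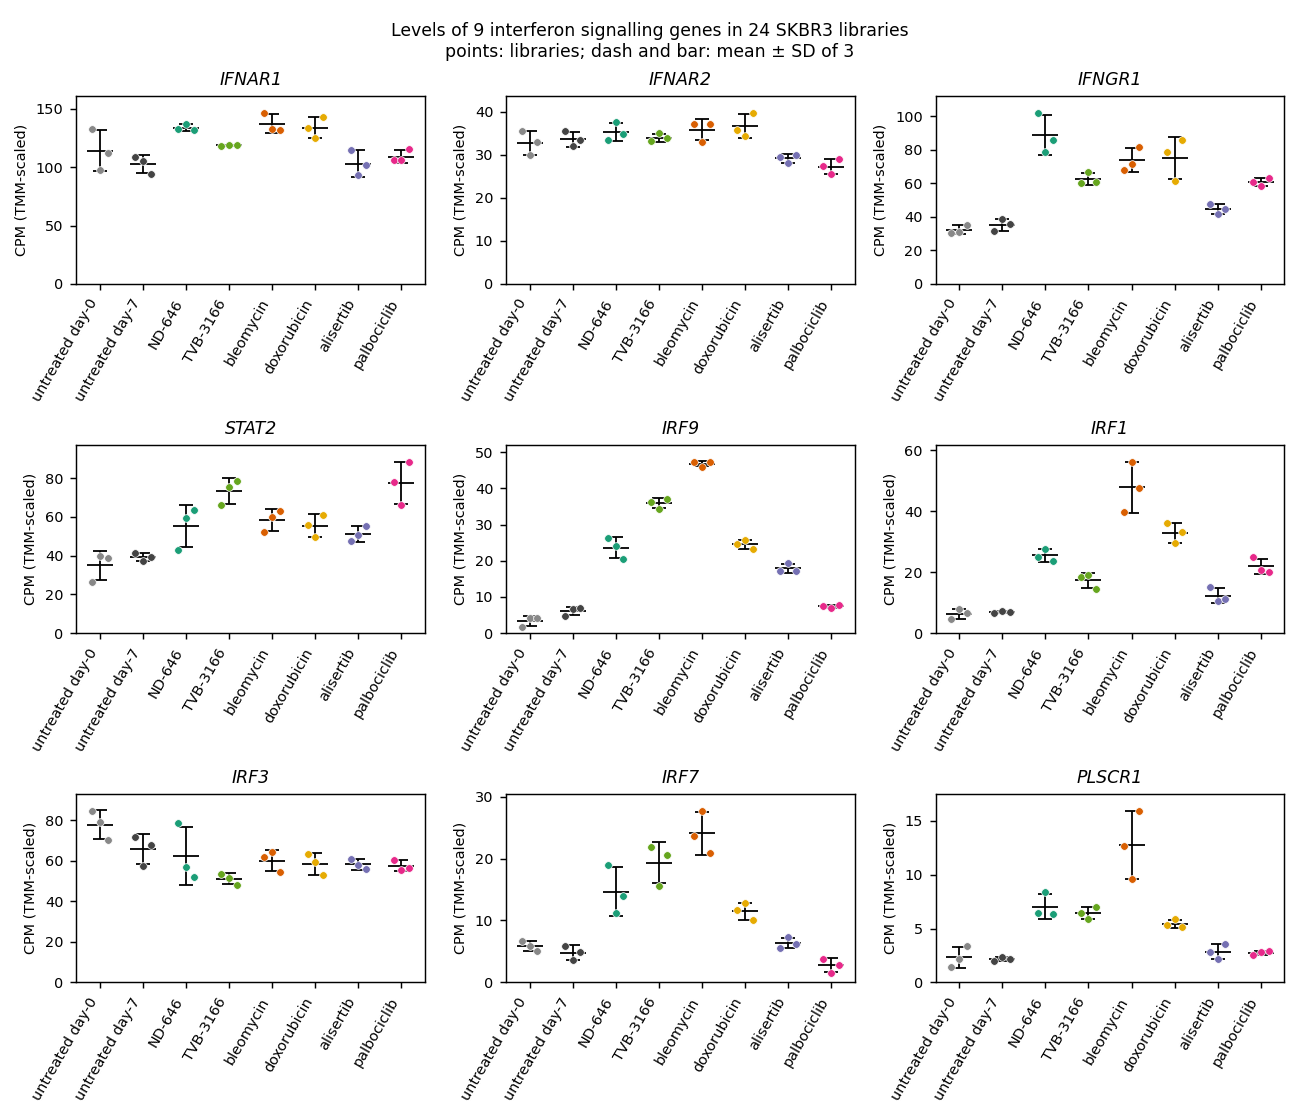
Level in CPM of each of the 9 genes (y axis, from 0) in 8 groups of SKBR3 cells (x axis). Points are libraries, and the dash and bar are the mean and SD of 3. IRF9 lies between 46.0 and 47.3 CPM in bleomycin cells and between 1.75 and 4.31 CPM in day-0 cells, while IFNAR1 and IFNAR2 overlap between most groups.

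**Figure D2:**
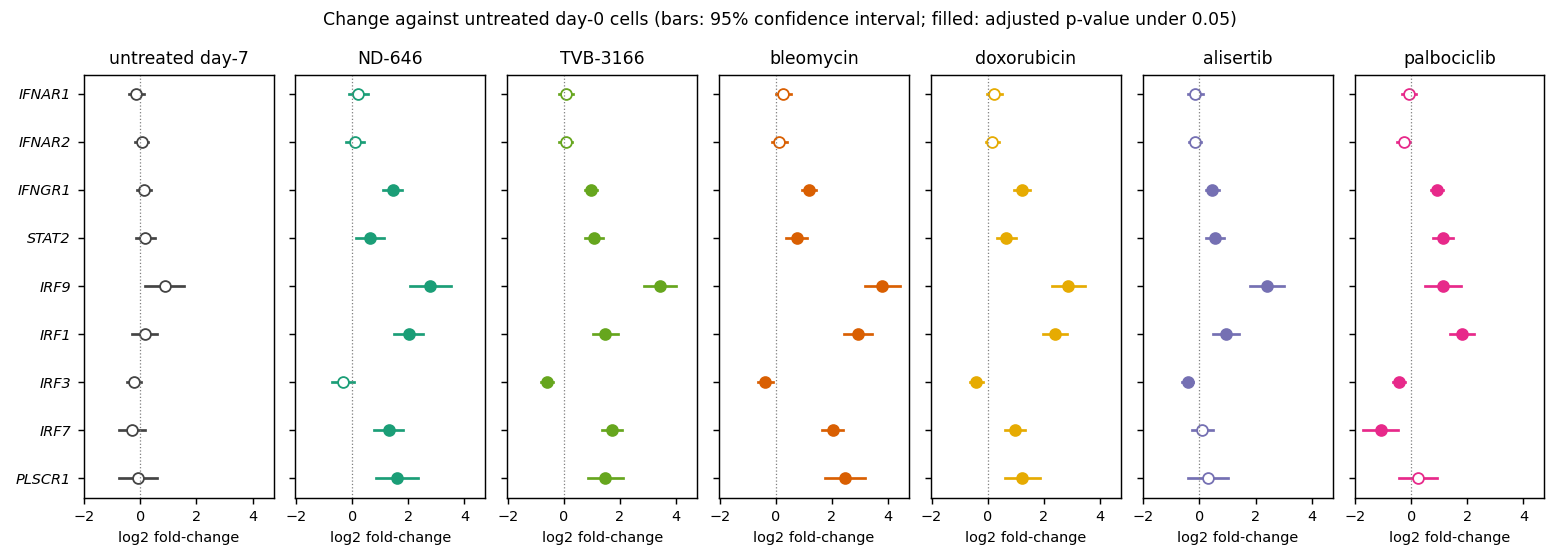
Log2 fold-change (x axis) of each gene (y axis) in untreated day-7 cells and 6 TIS groups against untreated day-0 cells. Bars are 95% confidence intervals and filled points have an adjusted p-value under 0.05. IRF9, IRF1, STAT2, and IFNGR1 are filled and above 0 in all 6 TIS groups, and IRF7 is filled below 0 in palbociclib cells.

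Levels of different genes can be compared only per length. Per kilobase of the reference transcript, day-0 cells held most of IRF3, at 48.8 ± 4.56 CPM (SD, n = 3), followed by IFNAR1 at 18.8 ± 2.90 and IFNGR1 at 15.6 ± 1.30. IFNAR2 and STAT2 were close to each other, at 8.04 ± 0.687 and 7.97 ± 1.69 CPM per kilobase. The lowest were IRF7 at 3.07 ± 0.394, IRF9 at 2.09 ± 0.875, IRF1 at 1.78 ± 0.477, and PLSCR1 at 1.18 ± 0.507. In bleomycin cells this order was different. IRF9 was at 28.8 ± 0.479 CPM per kilobase, beside 37.7 ± 3.30 for IRF3 and 22.6 ± 1.35 for IFNAR1, and IRF1 and IRF7 were at 13.5 ± 2.33 and 12.5 ± 1.79.

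The type I receptor subunits held a near constant level. IFNAR1 (chr21:34696692-34732170, plus strand, GRCh37) encodes the subunit bound by the kinase TYK2, and its libraries held 133, 97.8, and 112 CPM in day-0 cells. In bleomycin cells, which had the highest mean, they held 147, 133, and 132 CPM, and in day-7 cells, which had the lowest, 108, 105, and 94.4 CPM. The highest day-0 library thus lay within the bleomycin range, and the ratio of the highest to the lowest group mean was 1.34. IFNAR1 was called in 0 of 6 TIS groups against day-0 cells, with log2 fold-changes from -0.15 to 0.27 and adjusted p-values from 0.0928 to 0.681. Against untreated day-7 cells, whose 3 libraries were closer together, edgeR called it higher in ND-646 (log2 fold-change 0.37), TVB-3166 (0.21), bleomycin (0.43), and doxorubicin cells (0.41).

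IFNAR2 (chr21:34577587-34637980, plus strand) encodes the other subunit, which binds the kinase JAK1. A same-strand readthrough gene, IFNAR2-IL10RB, shares its exons, so some reads could belong to either. IFNAR2 held 35.5, 29.9, and 32.8 CPM in day-0 cells and 27.3, 25.5, and 28.9 CPM in palbociclib cells, the lowest group. No palbociclib library reached the lowest day-0 library. The log2 fold-change was -0.27 ± 0.11 (SE), and edgeR's adjusted p-value of 0.0571 missed the threshold. It passed at 0.0236 against day-7 cells. In the other 5 TIS groups the adjusted p-value of IFNAR2 was between 0.189 and 0.666, and every neighbour in its order of group means overlapped the next.

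In contrast, the interferon-gamma receptor gene rose in every TIS group. IFNGR1 (chr6:137518620-137540586, minus strand) encodes the ligand-binding chain, and it held 30.4, 31.3, and 35.4 CPM in day-0 cells and 31.6, 38.7, and 35.8 CPM in day-7 cells. ND-646 cells held 102, 78.6, and 85.5 CPM, the highest of all groups. No TIS library fell within the range of the day-0 libraries. The fold-change over day-0 cells was 2.72 with ND-646 (log2 1.44 ± 0.15 SE, edgeR adjusted p = 0.00019), and it was 2.34 with doxorubicin, 2.28 with bleomycin, 1.94 with TVB-3166, 1.88 with palbociclib, and 1.38 with alisertib, with adjusted p-values from 1.79e-05 to 0.00482. In the order of means, doxorubicin overlapped both ND-646 and bleomycin, bleomycin lay just above TVB-3166 without overlap, and TVB-3166 overlapped palbociclib, whereas alisertib lay apart from both palbociclib and the untreated groups. Its partner IFNGR2, which is not among the 9, was called higher in all 6 groups, at 73.4 CPM on average in ND-646 cells against 23.5 CPM in day-0 cells (log2 fold-change 1.63 ± 0.18 SE).

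Both ISGF3 subunits among the 9 rose in all 6 TIS groups, IRF9 by far more than STAT2. Their promoters are shown because the search for GAS and ISRE motifs gave different results for them. The reference sequences are the 250 bases before the transcription start, from RefSeq on GRCh38.p14, written 5′ to 3′ on the strand of the gene, with the motif in capitals. The motifs searched were GAAANNGAAA for the ISRE, on both strands, and TTCNNNGAA for the GAS, which reads the same on both strands. Of 35116 RefSeq promoter windows of this length, 3.02% held the ISRE letters and 6.57% the GAS letters. IRF9 (chr14:24161015-24161264, plus strand) had a GAS match 63 to 55 bases before the start, and STAT2 (chr12:56360108-56360357, minus strand) had neither motif in this window.
IRF9: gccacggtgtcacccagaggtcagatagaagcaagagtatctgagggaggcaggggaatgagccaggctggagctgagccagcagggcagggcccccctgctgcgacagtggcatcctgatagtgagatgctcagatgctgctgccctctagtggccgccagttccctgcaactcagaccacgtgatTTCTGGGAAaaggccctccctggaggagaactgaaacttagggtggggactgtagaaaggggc
STAT2: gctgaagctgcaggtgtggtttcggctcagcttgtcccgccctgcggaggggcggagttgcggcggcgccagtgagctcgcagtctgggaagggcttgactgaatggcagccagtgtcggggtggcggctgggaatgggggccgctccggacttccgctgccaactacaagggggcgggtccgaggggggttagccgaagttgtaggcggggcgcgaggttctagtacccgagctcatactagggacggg

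IRF9 (chr14:24630443-24637252, plus strand, GRCh37) encodes the DNA-binding subunit of ISGF3. A same-strand model of unnamed function, ENSG00000259529, shares 1544 exon bases with it, so some reads could belong to either. The opposite-strand model ENSG00000289757 shares 521 exon bases. Day-0 cells held 1.75, 4.31, and 4.11 CPM of IRF9 and day-7 cells 4.74, 6.66, and 6.95 CPM. Bleomycin cells held 47.3, 46.0, and 47.3 CPM and TVB-3166 cells 36.3, 34.3, and 37.2 CPM. These groups lay above every other library, and bleomycin cells lay above TVB-3166 cells without overlap. Doxorubicin (24.6, 25.8, and 23.4 CPM) and ND-646 cells (26.3, 24, and 20.5 CPM) overlapped each other, followed by alisertib cells at 17.2, 19.3, and 17.3 CPM. Palbociclib cells held 7.45, 6.92, and 7.77 CPM, the lowest of which was just under the highest day-7 library.

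The fold-change of IRF9 over day-0 cells was 13.9 with bleomycin (log2 3.80 ± 0.28 SE, edgeR adjusted p = 2.53e-05), 10.7 with TVB-3166 (log2 3.42 ± 0.26), 7.36 with doxorubicin, 6.92 with ND-646, 5.32 with alisertib, and 2.19 with palbociclib (log2 1.13 ± 0.29, adjusted p = 0.00712). The day-0 library of replicate 1 was lower than the other two, and untreated day-7 cells were 1.82 times day-0 cells, which missed the threshold with edgeR (adjusted p = 0.14) and passed it with DESeq2 (0.0428), with all 24 libraries in one fit (0.0291), and with the replicate number as a block (0.0195), within a range of 0.0195 to 0.357 over all alternatives. Against day-7 cells the log2 fold-change of IRF9 was smaller in every group, at 2.96 with bleomycin, 2.57 with TVB-3166, 2.04 with doxorubicin, 1.94 with ND-646, and 1.57 with alisertib, and with palbociclib it was 0.28 and no longer called (adjusted p = 0.198).

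STAT2 (chr12:56735381-56753987, minus strand) encodes the signal transducer that IRF9 joins in ISGF3. It held 26.5, 39.9, and 38.9 CPM in day-0 cells and 41.1, 37.3, and 39.4 CPM in day-7 cells. Palbociclib cells were highest at 77.8, 66.4, and 88.3 CPM, followed by TVB-3166 cells at 65.9, 75.4, and 78.6 CPM. The group that had the lowest IRF9 among TIS cells thus had the highest STAT2. Fold-changes over day-0 cells were 2.21 with palbociclib (log2 1.14 ± 0.16 SE, edgeR adjusted p = 0.000211), 2.096 with TVB-3166, 1.67 with bleomycin, 1.59 with doxorubicin, 1.56 with ND-646, and 1.46 with alisertib. In ND-646 cells (42.8, 59.3, and 63.3 CPM) the adjusted p-value was 0.0442, and it lost the threshold without a filter on low counts (0.0518), against day-7 cells (0.0597), and in 5 of 6 fits that each left out a library (0.0752 to 0.144, the last without day-0 replicate 1). The alisertib call was lost without alisertib replicate 3 (adjusted p = 0.0726).

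IRF1, a transcription factor that is itself induced by interferon-gamma and that switches on antigen presentation genes, rose in all 6 TIS groups as well. Its promoter window (chr5:132490774-132491023, minus strand, GRCh38.p14) is shown because it also had a GAS match, 124 to 116 bases before the start.
IRF1: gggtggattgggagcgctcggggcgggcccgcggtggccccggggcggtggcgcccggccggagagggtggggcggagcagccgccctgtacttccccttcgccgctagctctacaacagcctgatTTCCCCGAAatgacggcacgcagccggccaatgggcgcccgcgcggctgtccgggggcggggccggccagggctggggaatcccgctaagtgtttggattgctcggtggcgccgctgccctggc

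The gene lies at chr5:131776132-131844411 on the minus strand of GRCh37, and the antisense gene IRF1-AS1 shares exon bases with it. As it is not stated whether counting used the strand, reads of these genes cannot be told apart. IRF1 held 4.52, 7.89, and 6.51 CPM in day-0 cells and 6.77, 7.27, and 6.89 CPM in day-7 cells. Bleomycin cells held 39.7, 56.2, and 47.6 CPM, doxorubicin cells 36.0, 29.6, and 33.2 CPM, and ND-646 cells 25.1, 27.7, and 23.8 CPM. These groups did not overlap each other. Palbociclib cells, at 24.9, 20.6, and 20.2 CPM, overlapped ND-646 cells and lay above TVB-3166 cells, at 18.4, 19.2, and 14.6 CPM. The fold-change over day-0 cells was 7.63 with bleomycin (log2 2.93 ± 0.22 SE, edgeR adjusted p = 2.56e-05), 5.28 with doxorubicin, 4.02 with ND-646, 3.48 with palbociclib, 2.77 with TVB-3166, and 1.94 with alisertib (log2 0.96 ± 0.21, adjusted p = 0.00598). IRF1 and IRF9 therefore ranked the groups differently: TVB-3166 cells were next to highest for IRF9 and next to lowest for IRF1 among the TIS groups.

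IRF3 fell in 5 of 6 TIS groups. It lies at chr19:50162826-50169132 on the minus strand and encodes the factor that sensors of foreign nucleic acid activate by phosphorylation, with no need for a change in its transcript. Day-0 cells held 84.5, 78.9, and 70.1 CPM and TVB-3166 cells, the lowest group, 53.7, 51.6, and 48.1 CPM. ND-646 cells were spread most widely, at 78.8, 56.7, and 52.1 CPM, and overlapped day-0 cells. IRF3 was lower than in day-0 cells with TVB-3166 (log2 fold-change -0.60 ± 0.10 SE, edgeR adjusted p = 0.00042), palbociclib (-0.43), alisertib (-0.42), doxorubicin (-0.40), and bleomycin (-0.37, adjusted p = 0.0224), while the value with ND-646 was -0.33 (adjusted p = 0.177, and 0.00445 without ND-646 replicate 1). Untreated day-7 cells held 71.6, 57.4, and 67.8 CPM, and against them only the TVB-3166 value passed the test among the 6 groups, at -0.36 (adjusted p = 0.00926). The bleomycin call was also lost without bleomycin replicate 3 or day-0 replicate 1 or 2 (adjusted p = 0.096, 0.0633, and 0.0667). BCL2L12, on the opposite strand, shares 734 exon bases with IRF3, and its own log2 fold-changes were -0.83, -0.94, -0.85, and -0.60 with ND-646, TVB-3166, bleomycin, and doxorubicin, against -0.13 and -0.11 with alisertib and palbociclib, which missed the threshold. Its part in the IRF3 values was not tested.

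IRF7, the inducible partner of IRF3 that amplifies interferon production, differed most between TIS agents. The gene (chr11:612553-615983, minus strand) shares exon bases with no other annotated gene. It held 6.66, 5.88, and 5.15 CPM in day-0 cells and 5.93, 3.56, and 4.87 CPM in day-7 cells. Bleomycin cells held 23.7, 27.7, and 20.9 CPM, TVB-3166 cells 21.8, 15.6, and 20.6 CPM, and ND-646 cells 19.0, 11.2, and 13.9 CPM. Doxorubicin cells, at 11.6, 12.8, and 10.1 CPM, overlapped ND-646 cells and lay above alisertib cells, at 5.63, 7.30, and 6.13 CPM. Palbociclib cells held 3.82, 1.59, and 2.87 CPM, from 132, 50, and 96 counts, below every day-0 library. The fold-change over day-0 cells was 4.10 with bleomycin (log2 2.03 ± 0.17 SE, edgeR adjusted p = 4.06e-05), 3.29 with TVB-3166, 2.46 with ND-646, and 1.96 with doxorubicin. With alisertib the log2 fold-change was 0.11 (adjusted p = 0.651). With palbociclib IRF7 was 2.13-fold lower (log2 -1.09 ± 0.28 SE, adjusted p = 0.00793), and against day-7 cells the value was -0.78 and missed the threshold (adjusted p = 0.0525).

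PLSCR1, a scramblase that moves phospholipids between membrane leaflets and restricts viruses, is a direct target of ISGF3. Its promoter window (chr3:146544608-146544857, minus strand, GRCh38.p14, the upstream-most of 2 RefSeq starts) is shown because PLSCR1 was the only one of the 6 members found in the promoter table to hold the ISRE letters, 79 to 70 bases before this start. IFNAR1 and IFNGR1 had neither motif. IFNAR2, IRF3, and IRF7 were not in the promoter table.
PLSCR1: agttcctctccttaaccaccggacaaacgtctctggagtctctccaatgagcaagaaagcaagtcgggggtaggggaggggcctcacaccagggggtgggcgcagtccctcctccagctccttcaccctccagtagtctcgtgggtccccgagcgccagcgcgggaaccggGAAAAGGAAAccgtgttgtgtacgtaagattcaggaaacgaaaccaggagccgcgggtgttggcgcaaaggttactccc

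PLSCR1 (chr3:146232967-146262643, minus strand, GRCh37) held 1.42, 2.14, and 3.40 CPM in day-0 cells and 2.01, 2.35, and 2.17 CPM in day-7 cells. Bleomycin cells held 12.7, 9.61, and 15.9 CPM, above all other libraries. ND-646 (6.42, 8.36, and 6.35 CPM) and TVB-3166 cells (6.42, 5.85, and 7.02 CPM) overlapped, and doxorubicin cells held 5.31, 5.84, and 5.11 CPM. Alisertib (2.86, 2.17, and 3.52 CPM) and palbociclib cells (2.52, 2.83, and 2.90 CPM) lay within or close to the range of untreated cells. The fold-change over day-0 cells was 5.52 with bleomycin (log2 2.46 ± 0.32 SE, edgeR adjusted p = 0.00028), 3.02 with ND-646, 2.79 with TVB-3166, and 2.36 with doxorubicin (adjusted p = 0.00501). With alisertib the log2 fold-change was 0.30 (95% confidence interval -0.40 to 1.00) and with palbociclib 0.25 (-0.42 to 0.91), and the doxorubicin value was 1.24 (0.62 to 1.86). PLSCR1 was not tested between these 3 groups.

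ND-646 and TVB-3166 block consecutive enzymes of fatty acid synthesis and were given at the same concentration and time, so they were compared with each other. An equal concentration need not mean an equal effect. At this concentration, with renewal, the paper reports more cells positive for senescence-associated beta-galactosidase with the carboxylase inhibitor than with the synthase inhibitor. Whether the share of senescent cells bears on the differences between these groups was not tested. By edgeR 0 of 9 members were called between them, with 0.717% of 13662 genes called, and 4 of 9 had an unadjusted p-value under 0.05. IRF9 was higher in TVB-3166 cells by a log2 difference of 0.62 (95% confidence interval 0.31 to 0.93, adjusted p = 0.0883) and STAT2 by 0.42 (0.02 to 0.81, adjusted p = 0.304). IRF1 and IFNGR1 went the other way, at -0.55 (-0.89 to -0.20, adjusted p = 0.149) and -0.50 (-0.80 to -0.19, adjusted p = 0.135). The 3 libraries of each group did not overlap for these 4 genes or for IFNAR1, where 24.3% of all genes tested did not overlap in either direction. DESeq2 called IRF9, IRF1, and IFNGR1 (adjusted p = 0.00377, 0.0266, and 0.0235), as did the fit with all 24 libraries, and without ND-646 replicate 1 edgeR called these 3 and IRF7 (log2 difference 0.63, adjusted p = 0.0356), which with all libraries was at 0.41 (-0.10 to 0.93, adjusted p = 0.439). That ND-646 library held the least STAT2 and the most IRF9, IFNGR1, IRF3, and IRF7 of its group. For PLSCR1, IFNAR1, IFNAR2, and IRF3 the intervals included 0, with log2 differences from -0.28 to -0.05.

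**Figure D3:**
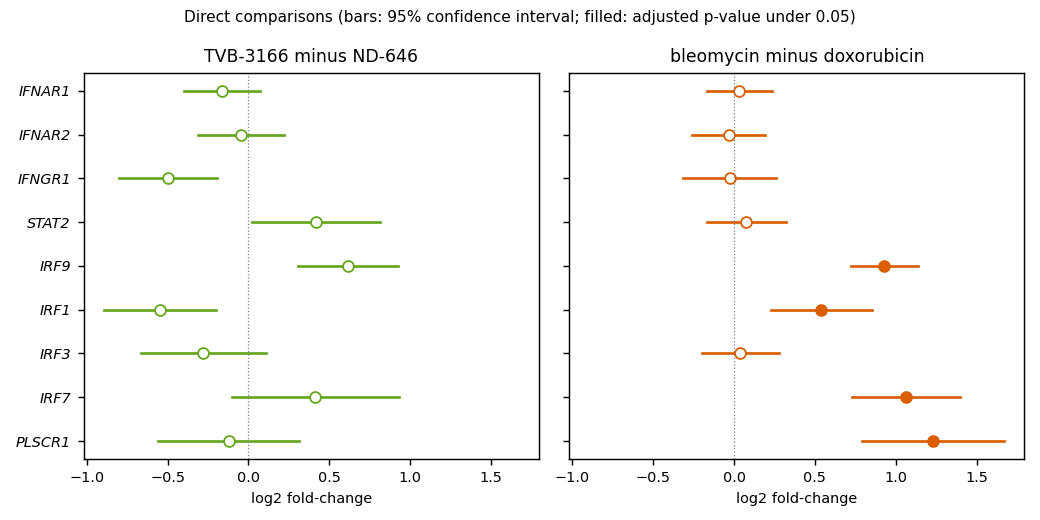
Log2 fold-change (x axis) of each gene (y axis) between TVB-3166 and ND-646 cells (left) and between bleomycin and doxorubicin cells (right). Bars are 95% confidence intervals and filled points have an adjusted p-value under 0.05. No point is filled on the left, where IRF9 lies at 0.62 and IRF1 at -0.55, and IRF9, IRF1, IRF7, and PLSCR1 are filled on the right.

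Bleomycin and doxorubicin both damage DNA, and their doses differed. Of the 9 members 4 were higher with bleomycin and 0 lower, with 12.1% of 13862 genes called in either direction and 6.54% called higher. With the study's thresholds the count was 2, against 3.9% of genes. PLSCR1 was 2.35-fold higher (log2 1.23 ± 0.20 SE, edgeR adjusted p = 0.00971), IRF7 2.09-fold (1.06 ± 0.15, adjusted p = 0.00755), IRF9 1.90-fold (0.93 ± 0.09, adjusted p = 0.00267), and IRF1 1.45-fold (0.54 ± 0.14, adjusted p = 0.0381). The other 5 had log2 differences between -0.03 and 0.08, and the widest of their intervals, that of IFNGR1, ran from -0.32 to 0.26. Only IRF9 was called without doxorubicin replicate 1 among the 4, IRF9 and IRF7 without doxorubicin replicate 3, and IRF1 lost its call in 5 of 6 fits that left out a library (adjusted p = 0.0655 to 0.125).

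The mean IRF7 level with palbociclib was the lowest of all groups, although its libraries overlapped those of untreated day-7 cells. Palbociclib cells were therefore also compared with each of the other TIS groups, a choice made after the levels were seen. IRF7 was lower with palbociclib than with bleomycin at a log2 fold-change of -3.12, an 8.70-fold difference (edgeR adjusted p = 0.000166, with 15.9% of genes called lower). It was 6.96-fold lower than with TVB-3166 (adjusted p = 1.07e-05, 20% called lower), 5.24-fold lower than with ND-646 (0.00295, 12.3%), 4.15-fold lower than with doxorubicin (4e-04, 13.4%), and 2.28-fold lower than with alisertib (0.00723, 14.9%). Each of these 5 calls held in 6 of 6 fits that left out a library.

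The rest of the pathway is described by lists of genes. Between 17.7% and 27.4% of all genes tested were called higher in the 6 TIS groups, and between 18.8% and 27.7% lower. None of 10 interferon genes listed (type I, gamma, and lambda) was in the table, which holds only genes with at least 1 count in every library, so the ligands were not analysed here. Of 6 other receptors and Janus kinases, 2, 3, 3, 3, 2, and 3 were called higher with ND-646, TVB-3166, bleomycin, doxorubicin, alisertib, and palbociclib, and 1 was lower with alisertib and with palbociclib. This was IL10RB, the shared receptor chain of interferon-lambda and interleukin-10, with log2 fold-changes of -0.49 ± 0.15 (SE) and -0.78 ± 0.14, named for alisertib after its value was seen. Of 4 other STAT genes tested, 2, 3, 3, 2, 0, and 1 were higher in the same order and none was lower. STAT5A, a mediator of growth hormone and cytokine signals, was higher with bleomycin (2.50 ± 0.20), ND-646 (1.72 ± 0.22), doxorubicin (1.48 ± 0.18), and TVB-3166 (1.07 ± 0.22). In the list of other IRFs and IRF2-binding proteins, 4 of 6 tested were higher with ND-646 and with TVB-3166, 6 of 7 with bleomycin, 5 of 7 with doxorubicin, and 2 of 7 with alisertib and with palbociclib, where 1 was lower. IRF2BP2, a corepressor that binds IRF2, rose in all 6 groups, by 1.40 ± 0.13 on the log2 scale with ND-646, 1.23 ± 0.12 with bleomycin, 1.14 ± 0.09 with TVB-3166, 0.67 ± 0.09 with alisertib, 0.65 ± 0.09 with doxorubicin, and 0.63 ± 0.09 with palbociclib.

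Genes upstream of the interferons and inhibitors of the pathway were called in both directions. Of 10 kinases and adaptors upstream of IRF3 and IRF7, 2 were higher and 1 lower with ND-646, 3 and 1 with TVB-3166, 4 and 0 with bleomycin, 2 and 0 with doxorubicin, 0 and 1 with alisertib, and 1 and 2 with palbociclib. STING1, the adaptor of cytosolic DNA sensing, was higher with ND-646 (log2 fold-change 1.01 ± 0.19 SE, edgeR adjusted p = 0.0034) and TVB-3166 (0.61 ± 0.17) and lower with alisertib (-0.98 ± 0.21) and palbociclib (-0.68 ± 0.18). Of 13 inhibitors of the pathway, between 0 and 2 were higher and between 2 and 5 lower in each group. Of all genes tested, between 37.3% and 55.1% were called in these comparisons. USP18, the protease that removes ISG15 and blocks IFNAR2 signalling and is usually induced by interferon, fell with palbociclib (-1.10 ± 0.18), ND-646 (-0.73 ± 0.21), and doxorubicin (-0.62 ± 0.17). The medians of these 2 lists lay between -0.26 and 0.27 in all 6 groups.

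The type I interferon targets rose together in most TIS groups, and 13 of the 26 listed were in the table. Of those tested, 11 of 12 were higher with ND-646, 12 of 13 with TVB-3166, 12 of 13 with bleomycin, 12 of 13 with doxorubicin, and 11 of 12 with alisertib, and none was lower in these groups. With palbociclib 8 of 13 were higher and 1 lower, OAS3, at -1.08, which was named after its value was seen, as the exception. The median log2 fold-change of the list was 2.0, 2.51, 4.197, 2.94, 1.72, and 0.77 with ND-646, TVB-3166, bleomycin, doxorubicin, alisertib, and palbociclib. Between 17.7% and 27.4% of all genes tested were called higher in these groups. OAS2, which makes the messenger that activates RNase L, rose by 5.90 ± 0.22 SE with bleomycin, from a mean of 0.728 to 43.7 CPM, and by 5.10 ± 0.17 with TVB-3166.

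Of 13 interferon-gamma and IRF1 targets listed, 8 were in the table, and 5, 5, 8, 8, 2, and 7 of the 8 were higher with ND-646, TVB-3166, bleomycin, doxorubicin, alisertib, and palbociclib, with none lower. Median log2 fold-changes were 1.34, 0.91, 3.32, 2.50, 0.05, and 1.43. The share of all genes tested that were called higher lay between 17.7% and 27.4%. GBP3, a guanylate-binding protein, rose by 3.44 ± 0.23 SE with palbociclib and 1.47 ± 0.32 with alisertib. Palbociclib cells thus had more of the interferon-gamma and IRF1 targets called than alisertib cells, while alisertib cells had more of the type I targets called; the difference between these counts was not tested. In all, 26% of genes tested were called higher with palbociclib and 17.7% with alisertib. IRF1 was at 21.9 CPM in palbociclib and 12.3 CPM in alisertib cells, and IRF9 at 7.38 and 17.9 CPM. ND-646 cells held more IRF1 than palbociclib cells, at 25.5 CPM, with 5 of 8 interferon-gamma and IRF1 targets called higher against 7. Whether these levels bear on the counts was not tested.

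**Figure D4:**
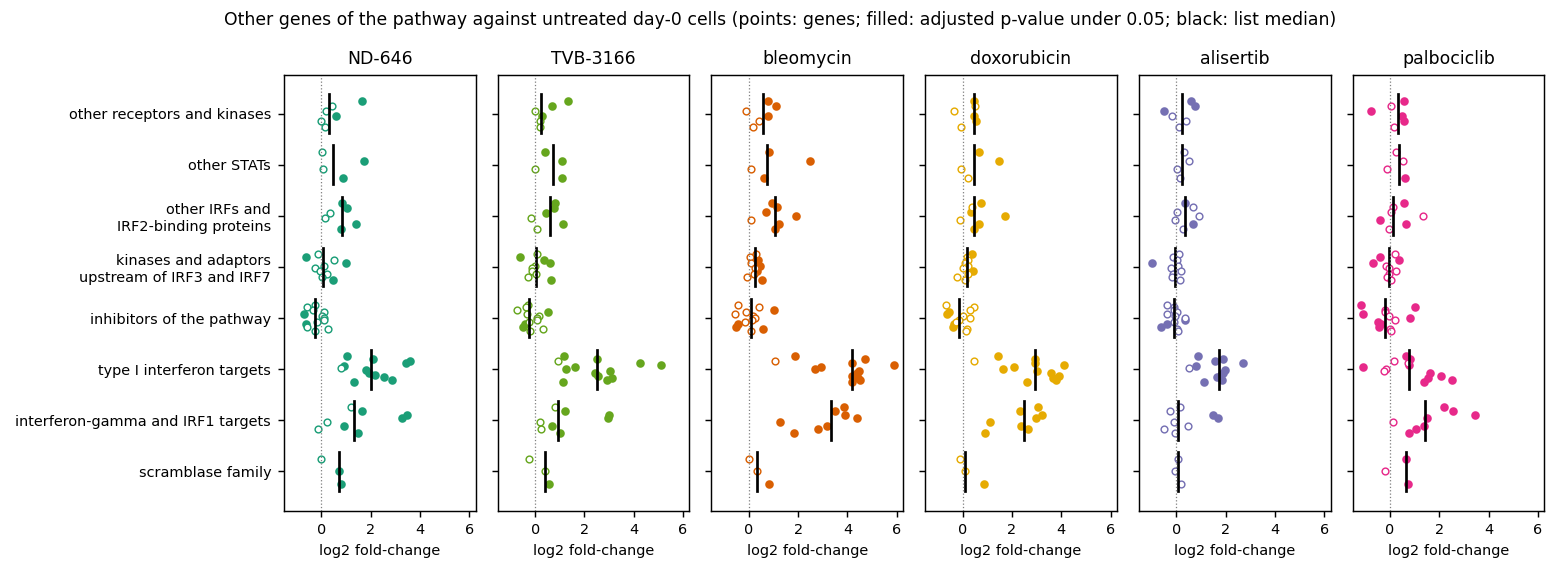
Log2 fold-change against untreated day-0 cells (x axis) of the other genes of the pathway, by list (y axis), in 6 TIS groups. Points are genes, filled points have an adjusted p-value under 0.05, and black bars are list medians. The type I interferon targets have a median of 4.197 with bleomycin and 0.77 with palbociclib.

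The 13 type I targets were set beside IRF9 library by library. Their mean level, on the log2 CPM scale, was 0.51 ± 0.20 (SD, n = 3) in day-0 cells, 0.86 ± 0.33 in day-7 cells, 1.32 ± 0.08 in palbociclib cells, 1.87 ± 0.12 in alisertib cells, 2.38 ± 0.22 in ND-646 cells, between 2.92 and 2.93 in the TVB-3166 libraries, 3.23 ± 0.12 in doxorubicin cells, and 4.24 ± 0.26 in bleomycin cells. This is the order of the group means of IRF9 except that doxorubicin cells had more of the targets and less IRF9 than TVB-3166 cells. Libraries of these groups overlapped neither in IRF9 nor in the targets.

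**Figure D5:**
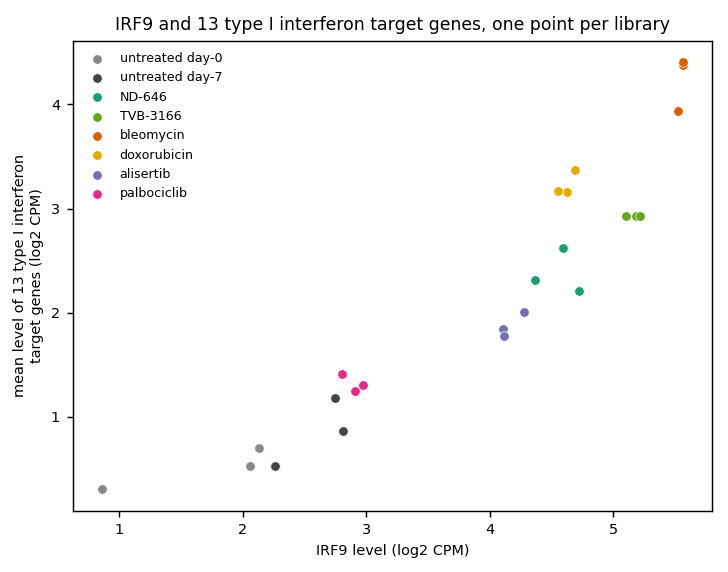
Mean level of 13 type I interferon target genes (y axis, log2 CPM) against the level of IRF9 (x axis, log2 CPM), with a point for each of 24 libraries coloured by group. Bleomycin libraries lie at the upper right and day-0 libraries at the lower left, and the TVB-3166 libraries lie to the right of and below the doxorubicin libraries.

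Among 12608 genes with a mean of at least 1 CPM, the genes whose log2 CPM followed each member most closely over the 24 libraries were picked by Pearson's r. The libraries fall into 8 groups and share their treatments, so r describes the likeness of patterns only. For IRF9 they were OAS2 (r = 0.955), OAS1 (0.943), and GADD45A (0.930), the first 2 of which are in the target list. For IRF1 they were APOL6 (0.973), UBE2H (0.965), and GPR158 (0.965). IRF7 was closest to DLL4 (0.956) and PLSCR1 to KLHL38 (0.922), which also followed IRF7 (0.913). STAT2, whose level was highest with palbociclib, was followed by TP53INP1 (0.927), IFNGR1 by ANXA3 (0.956), and IRF3 by TCP1 (0.935). The receptor subunit IFNAR2 had DENND2B (0.847).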

How the data were processed

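Reads of 24 RNA-seq libraries were aligned by the authors with HISAT2 (GRCh37) and assembled with StringTie, and the deposited values are raw whole-number counts for each gene. The counting settings and the use of strand are not given in the sources used here. The labels name a kit for mRNA and the methods a kit for total RNA. The lowest count in the table of 14493 genes is 1, so a gene without reads in some library is not in it. Groups and replicate numbers came from the labels.

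The deposited counts were tested in 2-group fits with edgeR 4.0.16 in R 4.3.3 (filterByExpr, TMM, glmQLFit and glmQLFTest, 2-sided), with Benjamini-Hochberg adjustment over all genes and a threshold of 0.05. With 3 libraries against 3 an exact permutation test cannot go below 0.1. CPM are scaled by TMM and given as mean ± SD, with a prior count of 2 on the log2 scale. Replicates differed beyond sampling noise in 24 of 24 pairs. By chi-squared per degree of freedom, pairs with day-0 replicate 1 were at 171 and 172, against 18.3 for the remaining day-0 pair. Pairs with ND-646 replicate 1 were at 146 and 159, against 13.4 for the remaining pair of that group. No pair of any other group exceeded 52.8. Day-0 replicate 1 is part of the reference in every comparison with day-0 cells. Per-length levels used MANE Select transcripts, and positions are from GENCODE on GRCh37. The test was tried on simulated counts. Alternatives were DESeq2 1.42.0, RLE size factors, other filters on low counts, all 24 libraries in one fit, a fold-change of at least 2 with an unadjusted p-value under 0.05, day-7 cells as the reference, plain library totals, a block for the replicate number, and fits without each library in turn.

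Deviations from the group means were correlated between ND-646 and TVB-3166 libraries of the same number (r from 0.251 to 0.411, each over 0.1), so the numbers were taken to pair them in that comparison alone, and the block changed no call there. The members and lists were chosen with earlier results of these data known. All 9 members were named, and of each list in each comparison at most the 2 called genes with the largest fold-change. Exceptions were IL10RB, OAS3, and, with doxorubicin, IFNGR2 and IRF2BP2, which were followed across all groups. A few gene-level results are not reported here.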

Additional observations from a re-analysis of the deposited data

Results flagged for a closer look

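Bleomycin and doxorubicin cells differed in 4 of the 9 genes by the test of the difference itself (edgeR), against 12.1% of all genes tested. The log2 fold-change of bleomycin over doxorubicin cells was 1.23 for PLSCR1, 1.06 for IRF7, 0.93 for IRF9, and 0.54 for IRF1.

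IRF7 was lower with palbociclib than with each of the other TIS agents, with log2 fold-changes of -3.12 against bleomycin, -2.80 against TVB-3166, -2.39 against ND-646, -2.05 against doxorubicin, and -1.19 against alisertib. These 5 comparisons were chosen after the levels were seen. Apart from the flagged results, 5 of 13 inhibitors of the pathway were lower and 2 higher with palbociclib than in day-0 cells. Of all genes tested, 27.2% were lower and 26% higher, or 53.2% in either direction. The count is therefore not read as a result about the inhibitors. The largest changes among the inhibitors were those of SOCS1 (-1.17, from a mean of 1.84 to 0.81 CPM) and USP18 (-1.10).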

How the results depend on the processing

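Of the counts of called members under the alternatives, 112 stayed within 1.5 times the reported count and 11 did not. Under the rule of a fold-change of at least 2 and an unadjusted p-value under 0.05, the counts were 4 with doxorubicin, 1 with alisertib, and 2 between bleomycin and doxorubicin, because smaller fold-changes were left out. Between day-7 and day-0 cells, 1 member (IRF9) was called with DESeq2, with all 24 libraries in one fit, and with the replicate block. The replicate numbers did not pair the libraries in that comparison (r from 0.0755 to 0.255). The block also added calls of IFNAR1 with bleomycin (0.28) and doxorubicin (0.25) and of IFNAR2 with palbociclib (-0.27), and changed no other call. Between TVB-3166 and ND-646 cells, 3 members were called with DESeq2 and with all 24 libraries, and the cause was not tested.

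Leaving out a library gave 5 to 7 called members with ND-646, 7 with TVB-3166, 6 to 7 with bleomycin, 7 to 8 with doxorubicin, 4 to 5 with alisertib, 6 with palbociclib, 0 in day-7 cells, 0 to 4 between TVB-3166 and ND-646 (4 without ND-646 replicate 1), and 1 to 4 between bleomycin and doxorubicin (1 without doxorubicin replicate 1, 2 without doxorubicin replicate 3).

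Of the log2 fold-changes, 952 kept their direction and side of the threshold, 25 lost it, 27 passed it, and 22 changed sign. The sign changed only for values that were not called. Against day-7 cells IFNAR1 was at 0.021 with alisertib and 0.094 with palbociclib. The other changes came from leaving out a library. Against day-0 cells these fits ranged from -0.044 to 0.18 for IFNAR1 and from -0.0070 to 0.12 for IFNAR2 with TVB-3166, from -0.011 to 0.22 for IRF7 with alisertib, and from -0.16 to 0.059 for IFNAR1 and from -0.0095 to 0.63 for PLSCR1 with palbociclib. In day-7 cells they ranged from -0.012 to 0.11 for IFNAR2, from -0.036 to 0.35 for IRF1, and from -0.35 to 0.29 for PLSCR1. Between TVB-3166 and ND-646 the ranges were -0.085 to 0.0036 for IFNAR2 and -0.19 to 0.020 for PLSCR1, and between bleomycin and doxorubicin -0.028 to 0.080 for IFNAR1, -0.15 to 0.075 for IFNGR1, -0.076 to 0.027 for IFNAR2, and -0.031 to 0.11 for IRF3.

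On plain library totals 59 of the group means of members moved by less than 1 SD and 13 by more. Among the 9 members the lowest counts were the 50 of IRF7 in a palbociclib library and the 56 of PLSCR1 in a day-0 library. Of the members, these genes are limited most by depth. Some genes of the lists lay lower, among them IRF8 at a mean of 0.249 CPM and OAS2 at 0.728 CPM in day-0 cells.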

Other observations

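Of 6 listed scramblase relatives of PLSCR1, 3 were in the table. ANO6, a calcium-activated scramblase of the plasma membrane, was higher than in day-0 cells with doxorubicin (log2 fold-change 0.87 ± 0.13 SE), bleomycin (0.82 ± 0.11), ND-646 (0.79 ± 0.23), palbociclib (0.75 ± 0.11), and TVB-3166 (0.55 ± 0.11). PLSCR3 was higher with palbociclib (0.66 ± 0.14), where PLSCR1 was not called, and XKR8, which acts in dying cells, with ND-646 (0.73 ± 0.22). None of the 3 was called with alisertib.

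Between bleomycin and doxorubicin cells, 9 of 13 type I interferon targets and 5 of 8 interferon-gamma and IRF1 targets were higher with bleomycin and none was lower. In that comparison 6.54% of all genes tested were called higher. OAS2 was higher by 1.81 ± 0.21 on the log2 scale and MX1, a GTPase that blocks viruses, by 1.77 ± 0.32. NLRC5, the transactivator of MHC class I genes, was higher by 1.39 ± 0.23. STAT5A was higher by 1.02 ± 0.15 (edgeR adjusted p = 0.00877). Between TVB-3166 and ND-646 cells, 1 of 13 type I targets was called, OAS2, higher with TVB-3166 by 1.64 ± 0.24 (edgeR adjusted p = 0.0404). There 0.717% of all genes tested were called. IRF2BPL was lower with TVB-3166 (-0.74 ± 0.11, adjusted p = 0.0419). IRF8, a factor best known from myeloid cells, was higher than in day-0 cells with bleomycin (1.90 ± 0.55) and doxorubicin (1.74 ± 0.54). Its mean level stayed under 1 CPM, at 0.249 CPM in day-0 cells, 0.914 CPM in bleomycin cells, and 0.805 CPM in doxorubicin cells.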
